A study of Mus musculus with 16 samples.

Results

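The 10 chemokine ligands described here, Ccl2, Ccl5, Ccl6, Ccl7, Ccl8, Ccl9, Ccl11, Cxcl1, Cxcl14 and Cxcl16, were measured in the gastrocnemius muscle of 16 mice. They were chosen by name, from 22180 genes that had a probe set with a single gene symbol on the array. Each of the 10 had exactly 1 such probe set, so each gene's value is that of 1 probe set. A gene was tested if its probe set was brighter than the array's median in at least 8 of the 16 mice. All 10 ligands met this minimum, among 13601 genes tested, and 5 of them (Ccl6, Ccl9, Ccl11, Cxcl14 and Cxcl16) were above the median in every mouse.

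Chemokines are small secreted proteins that draw leukocytes along a gradient by binding G protein-coupled receptors on their surface. CC and CXC ligands are named for the spacing of their conserved cysteines, and many are held on heparan sulfate chains of the endothelial surface. In skeletal muscle they are known from injury, exercise and obesity, where tissue macrophages, fibroblasts, endothelial cells and fibres are all described as sources.

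The tested group held 8 male FVB/n mice with the Mx1-Cre transgene and floxed alleles of FoxO1, FoxO3 and FoxO4 (sample labels also say knockdown), called deletion mice below. The control group held 8 male littermates with the same floxed alleles and no Cre, which the labels call wild type. Both groups received 3 injections of polyinosine:cytidine, an inducer of interferon, at 4 to 5 weeks of age. Both ate a diet with 58% fat for 8 weeks from 7 to 8 weeks of age, and muscle was taken at 16 weeks. The labels call the deletion directed to endothelium, but the Mx1 promoter answers interferon in many cell types, blood and liver cells among them, and the controls carried no Cre. The comparison asks how the ligands differed between deletion and control muscle after the fatty diet.

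The log2 values, made by the authors with RMA, ran from 0.33 to 13.84 over the 41345 probe sets, with array medians of 4.43 to 4.61. Markers of muscle fibres were high in every mouse, with a mean over 8 genes of 12.81 to 12.91 in deletion mice and 12.76 to 12.92 in controls. Foxo1 ranged from 7.05 to 8.23 in deletion mice and from 7.22 to 7.38 in controls. Foxo3 ranged from 5.42 to 6.66 in deletion mice and from 5.19 to 5.66 in controls, and Foxo4 from 6.77 to 7.48 in deletion mice and from 7.26 to 7.73 in controls. Their differences were 0.07, 0.50 and -0.24 log2 units. The probe set used for each did not pass the test (limma adjusted p = 0.804, 0.0762 and 0.236). Foxo1 had 2 probe sets with a single gene symbol, and the brighter one was used. Where the probe sets lie relative to the floxed exons is not given in the sources used here. The groups therefore rest on the labels. Liver transcripts were present in some arrays: Alb, the serum albumin gene, was 10.02 to 11.68 in deletion mice 1, 2, 4 and 5 and 11.08 to 11.17 in control mice 2 and 7, against 4.23 to 8.18 in the other 10 mice. Over all genes, limma called 249 of 13601 at an adjusted p under 0.05, which is 1.83%, with 208 higher (1.53%) and 41 lower (0.301%) in deletion muscle. With the arrays centred on their medians, the split was 126 higher and 67 lower.

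None of the 10 ligands passed the test between deletion and control muscle. The limma fit gave an unadjusted p under 0.05 for 3 of them, Ccl11 and Cxcl16 (both higher) and Ccl5 (lower), against 17.3% of all genes tested. An exact permutation test of the means over all 12870 splits of the 16 mice gave p under 0.05 for 1 ligand, Ccl11. The difference was positive for 7 ligands and negative for 3, with a median of 0.10 log2 units, against a median of 0.00 and 50.2% positive over all genes tested. With the arrays centred on their medians, the 7 positive differences were all smaller and the 3 negative ones all larger in size. For no ligand did the values of the 8 deletion mice and the 8 controls fall apart without overlap, which happened for 0.353% of the genes tested. All 10 intervals of the difference lay within 1 log2 unit of 0 in both directions, and 8 lay within 0.5. In bulk muscle, fewer cells of a type and less RNA per cell cannot be told apart.

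**Figure D1:**
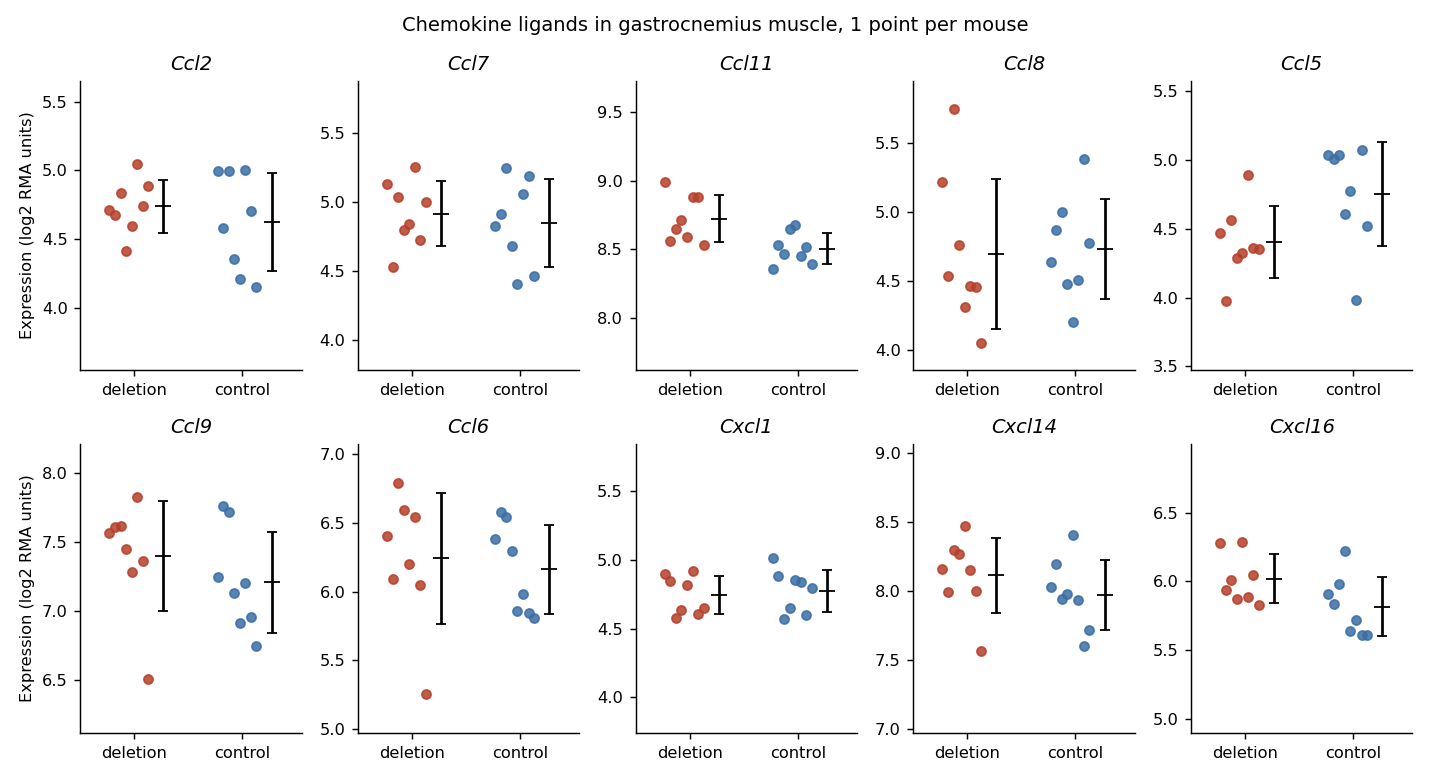
Expression of the 10 chemokine ligands in log2 RMA units, with deletion mice (red, left) and control mice (blue, right) as 1 point each and the mean ± SD beside them (8 mice per group). Every panel spans the same height in log2 units; the groups overlap in every panel, and deletion mouse 8 is the low point of Ccl6 at 5.26 and of Ccl9 at 6.50.

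Ccl2, Ccl7 and Ccl8 are the monocyte chemoattractant proteins of this set. Ccl2 and Ccl7 act through Ccr2, the receptor that brings monocytes out of the marrow, and mouse Ccl8 is also known as an agonist of Ccr8. Ccl2 ranged from 4.41 to 5.05 in deletion mice (median 4.73) and from 4.15 to 5.01 in controls (median 4.64). It lay above the array median in 7 of 8 deletion mice and 5 of 8 controls, and the deletion range fell almost inside that of the controls. The means were 4.74 ± 0.19 in deletion mice and 4.63 ± 0.36 in controls (SD, n = 8 each), with 0.11 between them (95% interval -0.16 to 0.39, limma adjusted p = 0.699).

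Ccl7 ranged from 4.53 to 5.26 in deletion mice (median 4.92) and from 4.41 to 5.25 in controls (median 4.87). It lay above the array median in 8 of 8 deletion mice and 6 of 8 controls. Its highest deletion mouse was mouse 6, which also had the highest Ccl2, and the groups shared almost their whole range. The difference was 0.07 (95% interval -0.20 to 0.33, limma adjusted p = 0.837). Without the 6 mice with high Alb, the differences were 0.22 for Ccl7 and 0.26 for Ccl2 (limma adjusted p = 0.609 and 0.598).

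Ccl8 varied more between mice of a group than any of the other 9 ligands, with a within-group SD of 0.46 that was larger than in 97.5% of the genes tested. Its probe set was dim: it lay above the array median in 4 of 8 deletion mice and 5 of 8 controls, close to the minimum. In deletion mice 1 to 8 it was 5.22, 4.54, 5.75, 4.76, 4.31, 4.47, 4.46 and 4.05. In control mice 1 to 8 it was 4.64, 4.87, 5.00, 4.48, 4.20, 4.50, 5.39 and 4.78. Deletion mouse 3 was the highest and deletion mouse 8 the lowest of all 16, so the deletion group enclosed the controls. The difference was -0.04 (95% interval -0.47 to 0.39, limma adjusted p = 0.946), and its sign turned to 0.08 without the 6 mice with high Alb.

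Ccl11, also called eotaxin, draws eosinophils through Ccr3 and is made by fibroblasts and other stromal cells. In deletion mice 1 to 8 it was 8.99, 8.56, 8.65, 8.71, 8.59, 8.88, 8.88 and 8.53. In control mice 1 to 8 it was 8.36, 8.53, 8.47, 8.65, 8.68, 8.45, 8.52 and 8.39. All 8 deletion mice lay above the control median of 8.49, and 4 of them (mice 1, 4, 6 and 7) lay above every control.

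The mean of Ccl11 was 8.72 ± 0.17 in deletion mice and 8.51 ± 0.11 in controls (SD, n = 8 each), a difference of 0.22 log2 units or 1.16-fold (95% interval 1.04 to 1.30-fold). This was the smallest p of the 10 ligands (exact permutation p = 0.00932, two-sided), and it did not pass after adjustment over all genes (limma adjusted p = 0.150). Over 28 other settings its adjusted p, or that of any of the other 9 ligands, went no lower than 0.0693. Without the 6 mice with high Alb the difference was 0.24. With the arrays centred on their medians it was 0.17, and that of Cxcl16 was 0.15. Ccl5 moved to -0.40 with centring and ranked first of the 10 ligands in the limma test, ahead of Ccl11. The eosinophil markers Epx, Prg2 and Ccr3 lay under the array median in all 16 mice, and Siglecf lay above it in 3. The tested genes of the eosinophil and mast cell list, all mast cell genes, Cpa3, Mcpt4 and Cma1, had a mean of 6.46 ± 0.33 in deletion mice and 5.94 ± 0.53 in controls (SD, n = 8 each). None of the 3 passed limma's adjusted test, and all 3 had an unadjusted p under 0.05 and a higher mean in deletion mice, with a median difference of 0.55. Their part in the Ccl11 difference was not tested.

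Ccl5 draws T cells, monocytes and eosinophils through several CC receptors. In deletion mice 1 to 8 it was 4.47, 3.97, 4.57, 4.29, 4.32, 4.89, 4.36 and 4.35. In control mice 1 to 8 it was 5.04, 5.01, 5.04, 4.61, 4.77, 3.98, 5.07 and 4.52. The probe set was dim: it exceeded the array median in 2 of 8 deletion mice and 6 of 8 controls, 8 mice in all, just meeting the minimum. All 8 deletion mice lay below the control median of 4.89, but control mouse 6, at 3.98, was lower than 7 of them.

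The mean of Ccl5 was 4.40 ± 0.26 in deletion mice and 4.75 ± 0.38 in controls (SD, n = 8 each), with -0.35 between them (95% interval -0.66 to -0.04, limma adjusted p = 0.225; exact permutation p = 0.0505). Leaving out the 6 mice with high Alb gave -0.12 (95% interval -0.53 to 0.30). The lymphocyte marker list had 4 tested genes, none of them past the threshold, with a mean of 4.44 to 4.91 in deletion mice and 4.61 to 4.96 in controls.

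Ccl6 and Ccl9 are rodent ligands of Ccr1, made mainly by macrophages and other myeloid cells. Ccl6 ranged from 5.26 to 6.79 in deletion mice (median 6.30) and from 5.81 to 6.57 in controls (median 6.14). Deletion mouse 3 was the highest and deletion mouse 8 the lowest of the 16 mice, again with the controls enclosed. The difference was 0.08 (95% interval -0.30 to 0.46, limma adjusted p = 0.864), 0.22 without deletion mouse 8 (limma adjusted p = 0.385) and 0.0013 without deletion mouse 3 (limma adjusted p = 0.998). Leaving out the 6 mice with high Alb gave 0.015.

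Ccl9 ranged from 6.50 to 7.82 in deletion mice (median 7.51) and from 6.74 to 7.76 in controls (median 7.17). Deletion mouse 8 stood apart at 6.50, while the other 7 deletion mice lay between 7.28 and 7.82. The means were 7.40 ± 0.40 in deletion mice and 7.21 ± 0.37 in controls (SD, n = 8 each), with 0.19 between them (95% interval -0.17 to 0.55, limma adjusted p = 0.599). Without deletion mouse 8 the difference was 0.32 (95% interval 0.03 to 0.61, limma adjusted p = 0.187).

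The differences of the CXC ligands ran from -0.03 for Cxcl1 to 0.20 for Cxcl16. Cxcl1, a neutrophil chemoattractant that acts through Cxcr2, ranged from 4.57 to 4.92 in deletion mice (median 4.73) and from 4.57 to 5.01 in controls (median 4.81). It lay above the array median in 8 of 8 deletion mice and 6 of 8 controls. Its difference of -0.03 had a 95% interval of -0.19 to 0.13 (limma adjusted p = 0.876), and was -0.10 without the 6 mice with high Alb. Of 8 neutrophil markers 4 were tested, Cxcr2 among them, with a mean of 5.18 ± 0.44 in deletion mice and 4.54 ± 0.14 in controls (SD, n = 8 each). The control values of 4.38 to 4.85 lay near the array medians of 4.43 to 4.61. A marker could thus meet the minimum mainly through deletion mice, and the list mean and any call among these markers are only descriptions. S100a8 alone of these 4 passed the test, against 1.53% of all genes called higher. It passed in all 16 fits that left out 1 mouse, but not without the 6 mice with high Alb (difference 1.01, limma adjusted p = 0.331).

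Cxcl14, a ligand that epithelia, fat and muscle make constitutively, ranged from 7.57 to 8.47 in deletion mice (median 8.16) and from 7.60 to 8.41 in controls (median 7.96). The lowest of all 16 was deletion mouse 8 and the highest was deletion mouse 5. The difference was 0.14 (95% interval -0.11 to 0.40, limma adjusted p = 0.584). Leaving out the 6 mice with high Alb gave 0.0047. It was 0.025 with the macrophage list described below as a covariate and 0.22 without deletion mouse 8.

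Cxcl16, a membrane-bound ligand of Cxcr6 and scavenger receptor that is shed by Adam10, was 6.28, 5.94, 6.01, 5.87, 6.29, 5.89, 6.05 and 5.83 in deletion mice 1 to 8. In control mice 1 to 8 it was 5.91, 5.84, 5.98, 6.22, 5.64, 5.72, 5.61 and 5.61. All 8 deletion mice lay above the control median of 5.78, and deletion mice 1 and 5 lay above every control. The means were 6.02 ± 0.18 in deletion mice and 5.82 ± 0.21 in controls (SD, n = 8 each), a difference of 0.20 or 1.15-fold (limma adjusted p = 0.285; exact permutation p = 0.0632). Without the 6 mice with high Alb the difference was 0.10.

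All 12 markers of the macrophage list were tested, each of them above the array median in 15 or all of the 16 mice, 11 were higher on average in deletion mice, and C1qa and Mertk passed the test, against 1.53% of all genes called higher. Both calls held in all 16 fits that left out 1 mouse and were lost without the 6 mice with high Alb (limma adjusted p = 0.244 and 0.233). The differences of C1qa and Mertk there were 0.57 and 0.39, against 0.56 and 0.42 with all mice. That fit had 4 deletion mice and 6 controls left, and 7 of all genes passed in it. The list's mean ran from 6.25 to 7.48 in deletion mice and from 6.05 to 6.64 in controls. Deletion mouse 3, the highest for Ccl8 and Ccl6, had the highest macrophage mean. Deletion mouse 8, the lowest for both, had the lowest macrophage mean of the deletion mice.

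With the macrophage mean as a covariate in the limma fit, the difference was -0.32 for Ccl6 (95% interval -0.61 to -0.02), -0.12 for Ccl9 (-0.46 to 0.22) and -0.47 for Ccl8 (-0.83 to -0.11). Their adjusted p-values of 0.375, 0.807 and 0.268 did not pass. Ccl11 was at 0.17 (95% interval -0.02 to 0.36) and Cxcl16 at 0.10 (-0.13 to 0.33) in that fit. The sign of the difference turned for Ccl6, Ccl7 and Ccl9. A covariate that itself moves with the groups can take part of the group difference with it, and the part of macrophage number in these values was not tested.

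**Figure D2:**
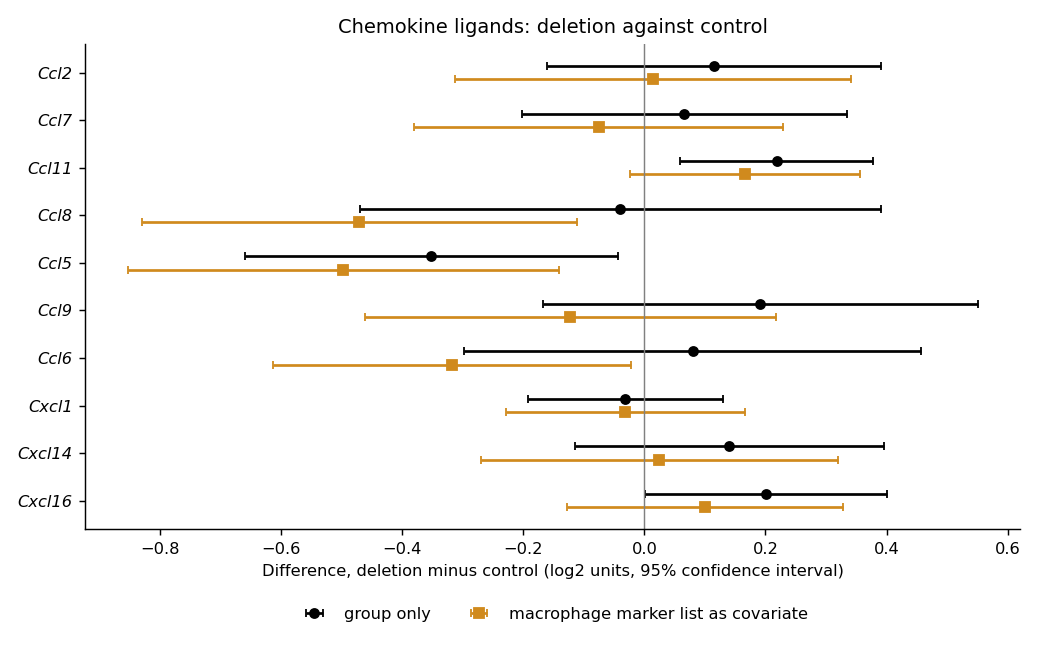
Difference between deletion and control muscle for each chemokine ligand in log2 units (deletion minus control, 8 mice per group), with 95% confidence intervals from limma: black circles for the fit with group alone, orange squares with the macrophage marker mean as covariate. In the fit with group alone the interval of Ccl11 lies at 0.06 to 0.38 and that of Ccl5 at -0.66 to -0.04; with the covariate Ccl6 moves to -0.32 and Ccl8 to -0.47.

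Each mouse's deviation from its group mean was correlated for all 45 pairs of ligands over the 16 mice, with 100000 permutations per pair and Benjamini-Hochberg adjustment over the 45; the points of a pair share their arrays. The correlation was positive for 39 of the 45 pairs, with a median of 0.26. It passed for 2 pairs, Ccl6 with Ccl9 and Ccl2 with Ccl7, each of them neighbours in the genome. Without the 2 mice farthest from the median, the pairs that passed were Ccl6 with Ccl9 and Ccl5 with Ccl7 (r = 0.75, adjusted permutation p = 0.0396), and Ccl5 and Ccl7 lie in different clusters. Within the deletion mice alone no pair passed.

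For Ccl6 with Ccl9, Pearson's r was 0.88 (permutation p = 3e-05, adjusted p = 0.00135) and Spearman's rho was 0.88 (adjusted permutation p = 0.0009). It was 0.87 within the deletion mice (exact p = 0.017) and 0.91 within the controls (exact p = 0.00067). The value within the deletion mice rests on mouse 8: without it r was 0.48 over the other 7 (exact p = 0.269). Without the 2 mice farthest from the median of Ccl6 it was 0.81 (adjusted permutation p = 0.0158), and leaving out each mouse in turn gave 0.77 to 0.91.

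For Ccl2 with Ccl7, Pearson's r was 0.76 (permutation p = 0.00087, adjusted p = 0.0196) and Spearman's rho was 0.75 (adjusted permutation p = 0.0301). It was 0.62 within the deletion mice (exact p = 0.0994) and 0.83 within the controls (exact p = 0.0151). Without the 2 mice farthest from the median of Ccl2 it was 0.62 and no longer passed (adjusted permutation p = 0.218), so the call rests on those mice.

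**Figure D3:**
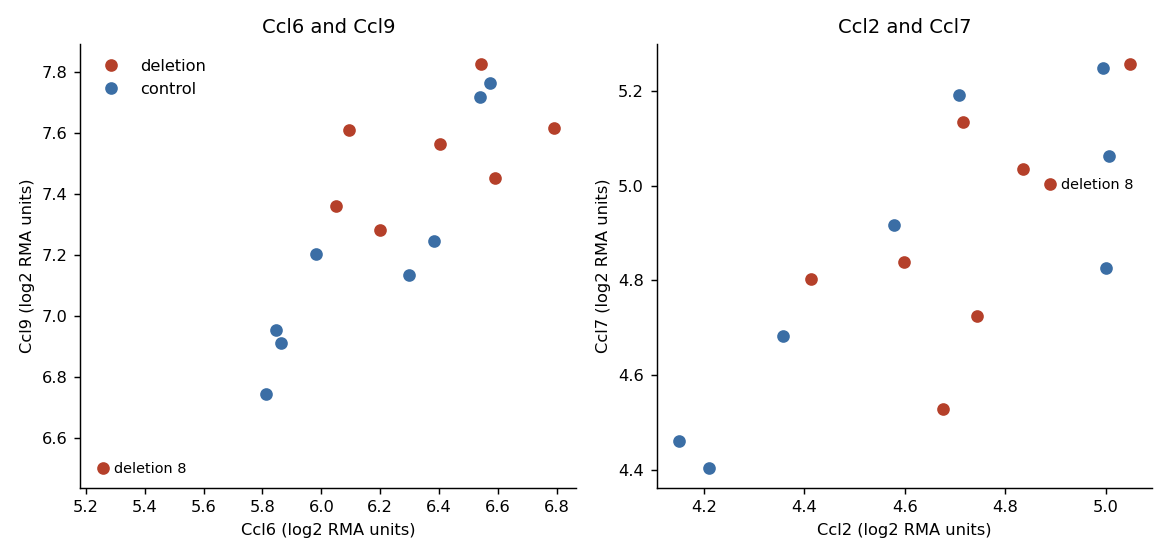
Levels of Ccl9 against Ccl6 (left) and of Ccl7 against Ccl2 (right) in log2 RMA units, 1 point per mouse, deletion mice in red and control mice in blue. Ccl6 and Ccl9 rise together over the 16 mice, with deletion mouse 8 at the low end at 5.26 and 6.50 (r within the deletion mice 0.87 with it and 0.48 without it); Ccl2 and Ccl7 scatter more, with r = 0.76 for deviations from the group means.

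In the RefSeq annotation of GRCm38.p6, Ccl2, Ccl7, Ccl11 and Ccl8 lie in this order on chromosome 11, with 1 protein-coding gene (Ccl12) between Ccl11 and Ccl8. Ccl5, Ccl9 and Ccl6 lie next to each other in a second cluster of the same chromosome, with 26 protein-coding genes between Ccl8 and Ccl5. Cxcl16 is elsewhere on chromosome 11, Cxcl1 is on chromosome 5 and Cxcl14 on chromosome 13. Adjacency did not go with correlation in each case: adjacent Ccl7 and Ccl11 had r = 0.10 and adjacent Ccl5 and Ccl9 had r = 0.31. The ligands are close paralogs, and whether their probes share targets was not analysed here.

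**Figure D4:**
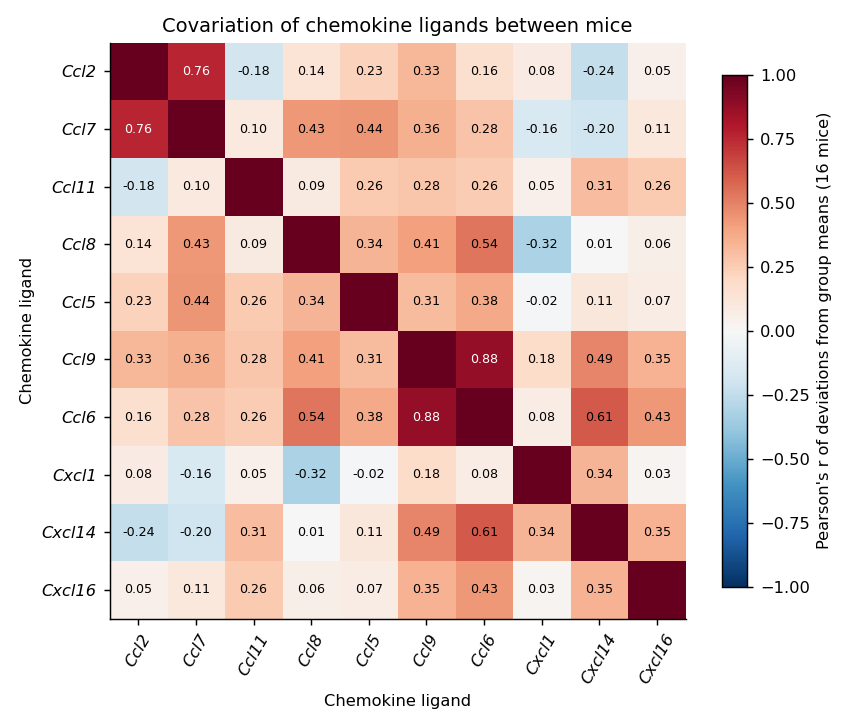
Pearson's r between chemokine ligands over 16 mice, from deviations from the group means, with the genes of the 2 chromosome 11 clusters in genome order. The highest values are 0.88 for Ccl6 with Ccl9 and 0.76 for Ccl2 with Ccl7; Ccl11 stays at 0.31 or lower with every other ligand.

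The promoter windows of Ccl6 and Ccl9 are shown because these neighbouring genes varied together over the 16 mice. The windows run from 250 bases before to 50 after the gene's start in RefSeq on GRCm38.p6, and both genes lie on the minus strand, Ccl6 at chr11:83593038-83593337 and Ccl9 at chr11:83578587-83578886. Capitals mark the 58 bases that are identical in their best local alignment (match 2, mismatch -2, gap opening -5, gap extension -1).
Ccl6: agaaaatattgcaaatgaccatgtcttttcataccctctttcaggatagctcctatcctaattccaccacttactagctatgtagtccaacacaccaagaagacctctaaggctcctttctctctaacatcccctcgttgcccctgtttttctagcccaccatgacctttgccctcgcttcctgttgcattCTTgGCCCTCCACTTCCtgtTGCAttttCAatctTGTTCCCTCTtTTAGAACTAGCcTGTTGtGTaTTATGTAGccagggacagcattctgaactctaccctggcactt
Ccl9: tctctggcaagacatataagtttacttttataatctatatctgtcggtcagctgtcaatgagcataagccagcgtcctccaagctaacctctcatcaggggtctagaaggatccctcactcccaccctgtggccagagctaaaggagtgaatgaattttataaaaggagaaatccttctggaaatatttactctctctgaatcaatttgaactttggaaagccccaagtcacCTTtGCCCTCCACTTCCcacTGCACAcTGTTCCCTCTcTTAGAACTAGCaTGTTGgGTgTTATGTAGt

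The alignment spanned 74 columns, 78.4% of them identical, and covered bases 192 to 265 of the Ccl6 window and 233 to 299 of the Ccl9 window. Of 32850 other promoter windows, that of Ccl9 had the highest alignment score with Ccl6, at 83, and the next had 59. Among the 5 ligands with a promoter window (Ccl6, Ccl8, Ccl9, Cxcl1 and Cxcl14), the other 9 pairs scored 18 to 29.

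Short motifs were searched on both strands of these 5 windows. The NF-kappaB letters GGNNTTTCC were in 5.82% of 32851 promoter windows, and matched once in Ccl9 and at 2 places in Cxcl1. The AP-1 letters TGANTCA (7.81% of windows) and the TATA box letters TATAAA (13.6%) matched 1 and 3 times in Ccl9, with 2 of the TATA matches overlapping, and the TATA letters matched 1 time in Ccl8. The interferon-gamma activated site TTCNNNGAA (8.3%) matched 1 time in Cxcl14. The FoxO letters TGTTTAC (3.65%) and the C/EBP letters TTNNGCAA (10.8%) matched in none of the 5, and Ccl6 held no match to any of the 6 motifs.

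Correlations with the means of 9 marker lists, chosen after the data were seen, were computed in the same way for all 10 ligands, 90 relations in all. Pearson's r passed for 5: Ccl6 with macrophage, monocyte and fibroblast markers, Ccl9 with monocyte markers and Ccl8 with macrophage markers (adjusted permutation p = 0.0193 for each). Spearman's rho passed for 4: Ccl6 with the same lists and Ccl9 with macrophage markers. For Ccl9 with monocyte markers it did not pass (adjusted permutation p = 0.0661). Within the deletion mice, Pearson's r of Ccl6 had exact p = 0.0939 with monocyte and 0.0557 with fibroblast markers. That of Ccl9 with monocyte markers had exact p = 0.0853. Within the controls these were 0.00151, 0.014 and 0.00541. The monocyte mean was of 3 genes, and the liver and Schwann cell lists were left out.

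Ccl6 with the macrophage mean had r = 0.79 and rho = 0.82 (adjusted permutation p = 0.0234 for rho). Within the deletion mice r was 0.73 (exact p = 0.0393) and within the controls 0.97 (exact p = 0.000322), and it was 0.85 without the 2 mice farthest from the median. Ccl9 with the macrophage mean had r = 0.66 (adjusted permutation p = 0.0827) and rho = 0.78 (adjusted permutation p = 0.0319).

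Ccl8 with the macrophage mean had r = 0.75 and rho = 0.65 (adjusted permutation p = 0.0843 for rho). It was 0.97 within the deletion mice (exact p = 0.000546) and 0.16 within the controls (exact p = 0.701), and the difference between the groups was not tested. Without the 2 mice farthest from the median it was 0.46 (permutation p = 0.0972), so the relation was weaker without those mice. Ccl11 had r = 0.50 with fibroblast markers and 0.29 with macrophage markers (adjusted permutation p = 0.306 and 0.601). With the mean of Cpa3, Mcpt4 and Cma1 it had r = 0.18 (adjusted permutation p = 0.752). That r was 0.64 within the deletion mice and -0.22 within the controls (exact p = 0.0781 and 0.614).

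The genes whose deviations were most like those of Ccl8, the ligand with the largest spread, were Apbb1ip (r = 0.91), Cd84 (0.88), Hpse (0.83), Casp1 (0.83) and Dock2 (0.82) over the 16 mice. For Ccl11, the ligand ranked first without centring, they were Sap30 (0.78), Seh1l (0.76), Dlc1 (0.75), Itm2c (0.74) and Vps8 (0.72). These are the highest of 13601 genes and are given as descriptions.

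Receptors of these ligands were mostly dim. Of 18 signalling receptors listed, 7 were tested and none passed the limma test, with 2 at an unadjusted p under 0.05 against 17.3% of all genes. Ccr2, the receptor of Ccl2 and Ccl7, lay above the array median in 5 of 16 mice, below the minimum. Ccr1, Ccr3 and Cxcr6 lay under the minimum too.

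Cxcr2, the receptor of Cxcl1 and a neutrophil gene, averaged 5.01 ± 0.33 in deletion mice and 4.57 ± 0.29 in controls (SD, n = 8 each), with 5 deletion mice above every control. Its difference of 0.44 did not pass (limma adjusted p = 0.121), and passed without deletion mouse 8 (limma adjusted p = 0.046). With controls near the array median, these values too are only descriptions. Cxcr4, the receptor of Cxcl12, averaged 5.62 ± 0.28 in deletion mice and 5.96 ± 0.19 in controls (SD, n = 8 each), a difference of -0.35 (limma adjusted p = 0.126). Cxcr5 and Cxcr1 differed by 0.12 and -0.19 (limma adjusted p = 0.485 and 0.299).

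Of 5 atypical receptors, which bind chemokines without G protein signalling, 4 were tested and none passed, nor had any an unadjusted limma p under 0.05. Ackr3, a scavenger of Cxcl12, averaged 6.63 in deletion mice and 6.52 in controls, a difference of 0.12 (limma adjusted p = 0.573). Ackr2, a scavenger of inflammatory CC ligands, differed by -0.08 (limma adjusted p = 0.701) and Ccrl2 by -0.12 (limma adjusted p = 0.576).

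Of 28 other chemokine ligands, 13 were tested and none passed, with 3 (23.1%) at an unadjusted p under 0.05 in the limma fit, against 17.3% of all genes. Ccl25 averaged 6.01 in deletion mice and 5.74 in controls, a difference of 0.26 (limma adjusted p = 0.169), with 5 deletion mice above every control. Ccl24, another eotaxin, averaged 5.10 in deletion mice and 5.40 in controls, a difference of -0.31 (limma adjusted p = 0.192). Cx3cl1 differed by 0.13 (limma adjusted p = 0.388) and Ccl20 by -0.33 (limma adjusted p = 0.28).

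Genes that induce chemokines (cytokines, their receptors and the NF-kappaB family) gave 1 call among 22 tested of 31 listed, against 1.53% of all genes called higher. Il1r1, the signalling receptor of interleukin 1, rose in deletion muscle: it ranged from 6.73 to 7.48 in deletion mice and from 6.30 to 6.91 in controls. The means were 7.15 ± 0.27 in deletion mice and 6.66 ± 0.17 in controls (SD, n = 8 each), a difference of 0.50 (limma adjusted p = 0.0239), with 7 of the 8 deletion values beyond those of all controls. The call was lost in 1 of the 16 fits that left out 1 mouse (without deletion mouse 2, limma adjusted p = 0.0519) and with the replicate block (limma adjusted p = 0.059).

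An unadjusted limma p under 0.05 was found for 10 of the 22 inducers, against 17.3% of all genes. Stat6, which carries interleukin 4 and interleukin 13 signals, averaged 7.10 in deletion mice and 6.84 in controls, a difference of 0.26 (limma adjusted p = 0.0624). Relb and Rel, members of the NF-kappaB family, differed by -0.12 and -0.21 (limma adjusted p = 0.272 and 0.288).

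Of 12 genes that process or present chemokines, 11 were tested and 2 rose in deletion muscle, against 1.53% of all genes called higher. Ext1, a polymerase of heparan sulfate, ranged from 7.82 to 8.43 in deletion mice and from 7.53 to 7.91 in controls, with 7 of 8 deletion mice above every control. Its difference was 0.49 (limma adjusted p = 0.0101), and it passed in all 16 fits that left out 1 mouse. Adam10, the protease that sheds Cxcl16 and Cx3cl1 from the cell surface, averaged 8.88 ± 0.23 in deletion mice and 8.41 ± 0.28 in controls (SD, n = 8 each), a difference of 0.47 (limma adjusted p = 0.0472). The call of Adam10 was lost in 14 of the 16 fits that left out 1 mouse, where its adjusted p reached 0.103. Dpp4, which trims the ends of several chemokines, and Adam17, another sheddase, differed by -0.21 and -0.02 (limma adjusted p = 0.556 and 0.93).

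Other values also differed between the groups, and their covariation with these 3 genes over the mice was not tested. All 10 endothelial markers were higher on average in deletion muscle and 7 passed the test, against 1.53% of all genes called higher, with a list mean of 7.40 to 7.98 in deletion mice and 7.13 to 7.50 in controls. With the macrophage mean as covariate Il1r1, Ext1 and Adam10 had differences of 0.36, 0.41 and 0.40 (limma adjusted p = 0.217, 0.102 and 0.264). With the mean of the Schwann cell list as covariate they were 0.47, 0.51 and 0.25 (limma adjusted p = 0.149, 0.0451 and 0.256). Without the 6 mice with high Alb they were 0.40, 0.49 and 0.41 with 4 deletion mice and 6 controls left (limma adjusted p = 0.316, 0.175 and 0.359). The part of endothelial cell number in these calls was not tested.

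**Figure D5:**
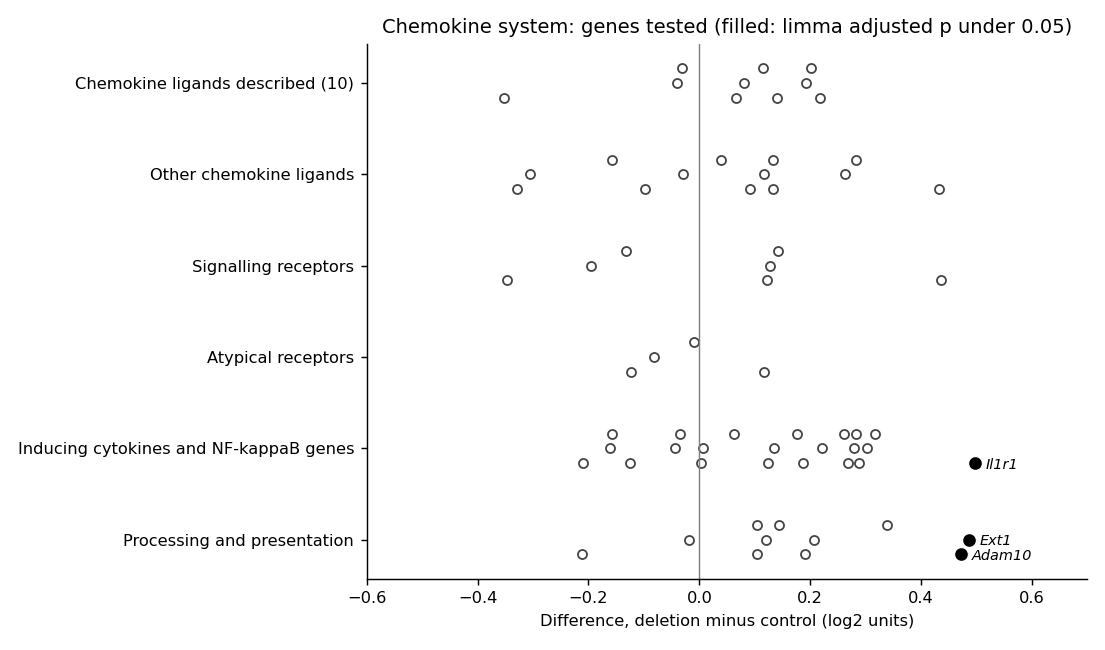
Difference between deletion and control muscle in log2 units (deletion minus control) for every tested gene of 6 lists, 1 point per gene, staggered in height within a list for legibility only; filled points passed limma's adjusted p of 0.05. The filled points are Il1r1 at 0.50, Ext1 at 0.49 and Adam10 at 0.47, and the 10 ligands described lie between -0.35 and 0.22.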

How the data were processed

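Gastrocnemius RNA was hybridised to 1 array for each of 16 mice. The labels' protocols give RNeasy extraction and biotin-labelled cRNA made from 250 ng of total RNA. The authors deposited log2 values for every probe set, obtained by RMA with the oligo package according to the submitters' processing notes. No version, genome build of the array or scan date is stated in those sources, and scan batches could not be examined. RMA normalizes between arrays, which can hide a shift of the whole transcriptome, and differences of dim probe sets can be compressed; the deposited arrays still differed in their medians (4.43 to 4.61). Precision is set by the number of mice, each labelled a separate biological replicate.

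The annotation gave 1 gene symbol for 23521 of the 41345 probe sets, several for 1814 and none for 16010; a gene was represented by its single-symbol probe set with the highest mean. The 13601 genes that exceeded the array's median in 8 or more mice were compared with limma 3.58.1 (lmFit, then eBayes; R 4.3.3), group as the only term, with Benjamini-Hochberg adjustment over all of them. Adjusted p-values of single genes are limma's, two-sided. Single values were also tested by exact permutation, with 0.000155 as the smallest possible p. On simulated data with 13601 genes, the deletion against control fit recovered 79 of 100 genes changed by 0.5 log2 units and 98 of 100 changed by 1. The simulated noise was normal, independent between genes, and had each gene's pooled within-group SD in both groups. Variation shared by the genes of an array was not simulated, so recovery in the real data can differ. Recovery at the spread of each ligand was not tested. The within-group SD of Ccl2, Ccl5, Ccl6, Ccl7, Ccl8, Ccl9 and Cxcl14 was larger than in 83.4% to 97.5% of the genes tested. That of Ccl11, Cxcl1 and Cxcl16 was larger than in 27.4% to 59.4%.

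The members, lists and tests were chosen with earlier results of these data known. Named genes follow a rule: all members, from each chemokine list up to 2 genes with the smallest p in each direction, up to 2 markers of a marker list, and the 5 genes most like the ligand with the smallest p and the ligand with the largest spread, without predicted genes and Riken clones. Ccr1, Ccr2, Ccr3, Cxcr6, the eosinophil and mast cell markers and the Foxo genes were named outside it, after their values were seen. Listed symbols without a single-symbol probe set were not analysed here. Replicate numbers were not used to pair the mice in the main fit. The correlations of same-numbered deletion and control mice were -0.08 to 0.25, highest for mice 8, and 1 of 8 correlated best with its own number. That check cannot tell whether same-numbered mice shared a litter or batch. Mouse 8 was the lowest of its group for Ccl6 and Ccl9 in both groups (controls 5.81 and 6.74). With the replicate block the standard error of the Ccl9 difference was 0.10, against 0.17 without it. Marker lists of other cell types gave 1 call, Itgam, higher and 1 of 3 monocyte markers tested, against 1.53% of all genes called higher. The call of Itgam was lost in 11 of the 16 fits that left out 1 mouse, where its adjusted p reached 0.0824. It was lost too without the 6 mice with high Alb (limma adjusted p = 0.331). The other counts were mast cell and eosinophil 0 of 3, fibroblast 0 of 9, adipocyte 0 of 5, Schwann cell 0 of 4 and liver 0 of 6.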

Additional observations from a re-analysis of the deposited data

Results flagged for a closer look

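Among 58 groups of 8 mice examined for a single value far from the others, 2 held one; chance gives about 1 in 20. Ccl9 in deletion mouse 8 was 6.50, below the other 7 deletion mice, and the difference of Ccl9 was 0.32 without it against 0.19 with it. Il1r1 in control mouse 3 was 6.30, below the other 7 controls.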

How the results depend on the processing

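None of the 10 ligands passed under any of 28 other settings, and of 274 differences recomputed 265 kept their direction. The sign turned with the macrophage covariate for Ccl6 (-0.32), Ccl7 (-0.0755) and Ccl9 (-0.12), with the Schwann cell covariate for Ccl6 (-0.0889), and for Ccl8 without the 6 mice with high Alb (0.0806). Leaving out 1 mouse gave -0.1905 to 0.0539 for Ccl8 (positive without deletion mouse 5 or 8 or control mouse 7) and -0.06 to 0.0028 for Cxcl1 (positive without control mouse 1). The cause was not tested. The count of all genes, 249 as reported, was 137 with no filter, 50 with the macrophage covariate, 134 with the liver covariate, 33 with the Schwann cell covariate, 7 without the 6 mice with high Alb (4 deletion mice and 6 controls left), 505 at an adjusted p under 0.1, and 107 to 680 leaving out 1 mouse (680 without deletion mouse 8). With the replicate block it was 213, and no ligand passed. The block took the calls among inducers to 0 and among processing genes to 1. Calls among the inducers, 1 as reported, were 2 with the filter at the 75th percentile and with array weights, 3 at an adjusted p under 0.1, 0 with the macrophage or Schwann cell covariate and without the mice with high Alb, and 0 (without deletion mouse 2) to 5 (without deletion mouse 8) leaving out 1 mouse. Calls among the processing genes, 2 as reported, were 1 with no filter, centring, quantile normalization, and the liver or Schwann cell covariate, 0 with the macrophage covariate or without the mice with high Alb, and 1 to 3 leaving out 1 mouse. Among receptors 0 to 1 passed leaving out 1 mouse (Cxcr2, without deletion mouse 8). By the exact test 1 ligand had p under 0.05, 2 with centring or quantile normalization, and 1 to 2 leaving out 1 mouse. Of the 45 pairs 2 passed, 0 within the deletion mice, 1 within the controls, and 1 to 4 leaving out 1 mouse; without the 2 mice farthest from the median 2 passed, Ccl6 with Ccl9 and Ccl5 with Ccl7. With the filter at the 75th percentile 6 ligands were not tested (Ccl2, Ccl5, Ccl7, Ccl8, Cxcl1 and Cxcl16). Of these, Ccl2, Ccl5, Ccl7, Ccl8 and Cxcl1 lay near the array median, which limits what can be said of them.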
